A study of Mus musculus with 4 samples.

Results

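Connecting tubule rich spots are the spots of a kidney section in which transcripts of 4 connecting tubule genes, Calb1, S100g, Slc8a1 and Trpv5, were densest. They were taken from a Visium series, in which each spot of a slide captures the RNA of the several cells above it and counts unique molecular identifiers (UMIs). In each spot the UMIs of the 4 genes were scaled to 10000 non-mitochondrial UMIs, log-transformed and summed, and the top 5% of spots by this score in each section were kept. This gave 555 of 11130 spots. The sections, 10 µm thick, were of fresh frozen kidney from male mice, all C57BL/6J in background. Uox_KO animals carry a deletion of exons 2 to 4 of Uox, which encodes urate oxidase, and Control animals are wild type. By their titles each section came from its own mouse, the age of the mice was not given in the sources used here, and sections served as replicates (n = 2 in each genotype).

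The connecting tubule joins the distal convoluted tubule to the collecting duct. Its principal-type cells reabsorb calcium from the urine: Trpv5 forms the apical entry channel, the calbindins encoded by Calb1 and S100g carry calcium through the cytosol, and the exchanger Slc8a1 and the plasma membrane pumps of the Atp2b family pass it into the blood. Parathyroid hormone, vitamin D through its receptor Vdr, and Klotho (Kl) regulate this transport. The same cells take up sodium through the epithelial channel ENaC under aldosterone, release tissue kallikrein (Klk1), and are interleaved with intercalated cells, which move acid and base.

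Control held 126 of 2528 and 168 of 3362 spots, and Uox_KO 132 of 2650 and 129 of 2590. Summed over these spots, the Control sections gave 3909971 and 5094441 UMIs and the Uox_KO sections 1904545 and 2640433. The median connecting tubule rich spot had 29952.5 and 31084 UMIs in Control against 11573.5 and 17362 in Uox_KO, so the Uox_KO levels are counted from shallower spots. The share of UMIs from mitochondrial genes was 14.48% and 15.01% in Control and 19.4% and 20.8% in Uox_KO, and 13.0% to 17.2% in the other spots. Visium barcodes mark positions on the array, and any 2 sections shared 1861 to 2539 of them because they used the same positions (2 to 10 among connecting tubule rich spots).

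The score at which a spot entered differed between sections. The lowest-scoring spot inside stood at 9.74 in Control 1, 10.13 in Control 2, 7.83 in Uox_KO 1 and 11.78 in Uox_KO 2, and the highest-scoring spot outside stood at 9.74, 10.12, 7.82 and 11.78. Uox_KO 1 had the lowest threshold and Uox_KO 2 the highest, so the Control sections lay between them. The median score inside was 10.69 and 10.97 in Control and 11.03 and 13.46 in Uox_KO, and among the other spots it was 3.21 and 3.94 in Control and 1.27 and 2.89 in Uox_KO.

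**Figure D1:**
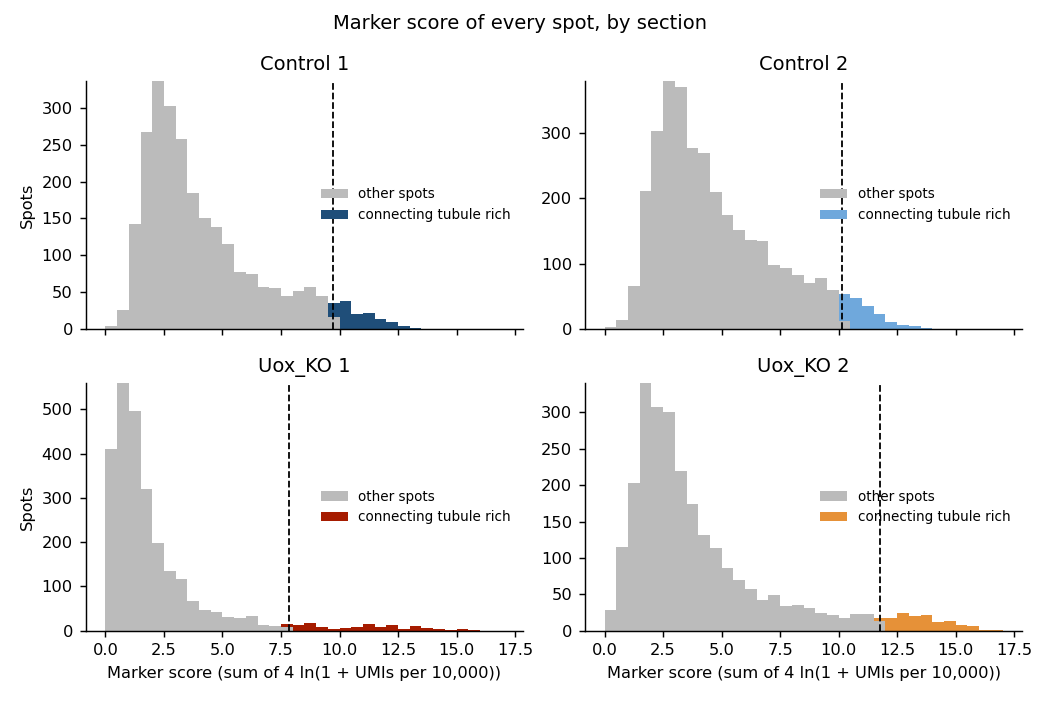
Number of spots by marker score (sum over the 4 markers of ln(1 + UMIs per 10,000)) in each section, with connecting tubule rich spots in colour, other spots in grey and the lowest score inside as a dashed line. The line stands at 7.83 in Uox_KO 1 and at 11.78 in Uox_KO 2, with both Control sections between.

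The 4 genes that chose the spots are given as a description, in UMIs per 1000000 (CPM, with TMM scaling over the 8 sums of connecting tubule rich and other spots). Calb1 stood at 1954 and 2032 CPM in Control and 2974 and 4965 CPM in Uox_KO, against 238, 307, 42.9 and 181 CPM in the other spots of the same sections. S100g stood at 12709 and 15552 CPM in Control and 11748 and 27127 CPM in Uox_KO, against 1289, 1907, 173 and 875 CPM. Slc8a1 stood at 869 and 882 CPM in Control and 909.6 and 1459.6 CPM in Uox_KO, against 95.9, 118, 27.3 and 71.2 CPM. The levels of Uox_KO 2 were the highest of the 4 sections for all 4 genes, and for S100g the Uox_KO sections lay on either side of Control. Trpv5, the scarcest of the 4 in UMIs, stood at 56.8 and 54.3 CPM in Control and 94.4 and 138 CPM in Uox_KO, against 5.90, 6.40, 3.10 and 8.84 CPM. It rested on 223, 273, 205 and 387 UMIs.

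A larger share of the marker transcripts lay inside these spots in Uox_KO. The connecting tubule rich spots held 29.1% and 26.9% of all Calb1 UMIs of the Control sections and 73.3% and 57.9% of those of the Uox_KO sections. For S100g these shares were 33.0%, 31.2%, 72.9% and 60.8%. For Trpv5 they were 32.5%, 32.0%, 54.7% and 43.9%. Over whole sections, Calb1 stood at 282 and 351 CPM in Control and 164 and 419 CPM in Uox_KO, so the genotypes overlapped there. In summed spots, fewer cells of a type and less RNA per cell cannot be told apart.

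**Figure D2:**
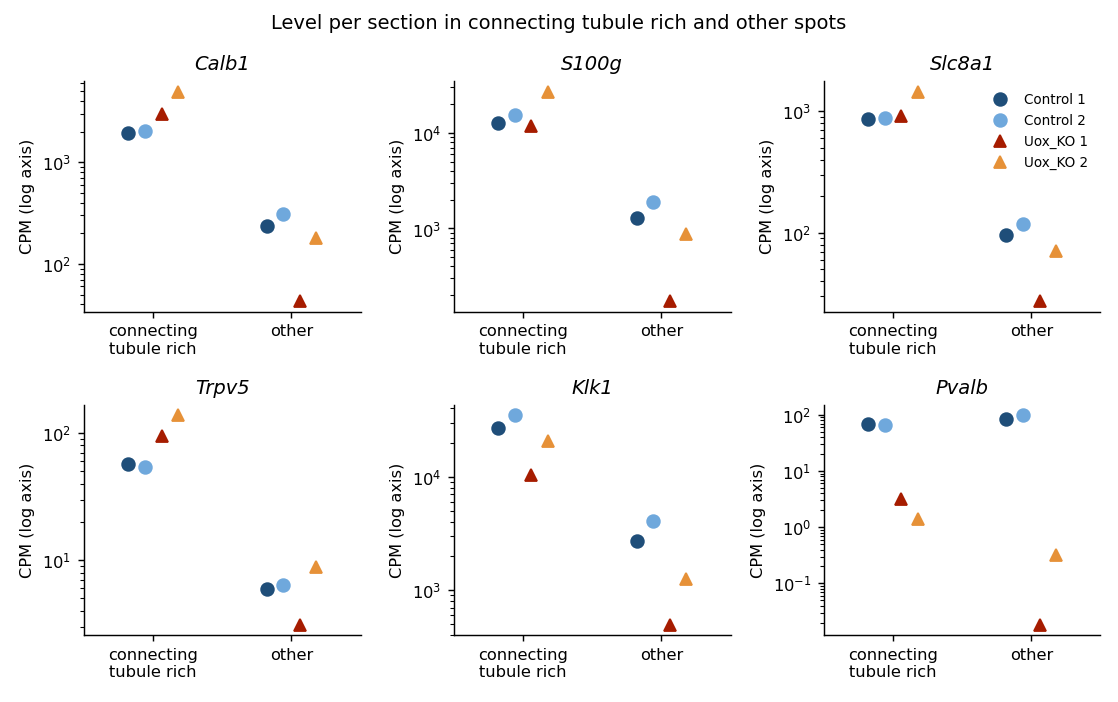
CPM (log axis) of the 4 marker genes, Klk1 and Pvalb in connecting tubule rich and other spots, 1 point per section. The markers lie higher in connecting tubule rich than in other spots of every section, and the other spots of Uox_KO 1 have the lowest level of each gene shown.

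Sequences just before the gene start are shown for both marker genes with an entry in the promoter table whose start is the end of the annotated gene, and for Klk1, the gene of at least 20 CPM most raised in connecting tubule rich spots. They are the 250 bases upstream, 5′ to 3′ on the gene's strand, from RefSeq on GRCm38.p6, the release line of the mm10 build the files use. Capitals mark letters of a searched motif.
S100g (chrX:162964600-162964849, minus strand): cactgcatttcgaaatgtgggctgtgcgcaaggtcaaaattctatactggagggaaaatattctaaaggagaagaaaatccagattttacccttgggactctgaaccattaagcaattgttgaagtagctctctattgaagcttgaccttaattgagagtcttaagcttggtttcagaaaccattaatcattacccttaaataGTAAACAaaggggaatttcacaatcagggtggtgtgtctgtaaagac
Slc8a1 (chr17:81738388-81738637, minus strand): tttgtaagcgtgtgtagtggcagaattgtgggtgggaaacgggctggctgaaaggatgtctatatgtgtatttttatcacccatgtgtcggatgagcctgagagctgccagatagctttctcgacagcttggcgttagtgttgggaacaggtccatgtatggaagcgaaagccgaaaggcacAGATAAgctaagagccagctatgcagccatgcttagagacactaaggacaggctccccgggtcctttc
Klk1 (chr7:44225110-44225359, plus strand): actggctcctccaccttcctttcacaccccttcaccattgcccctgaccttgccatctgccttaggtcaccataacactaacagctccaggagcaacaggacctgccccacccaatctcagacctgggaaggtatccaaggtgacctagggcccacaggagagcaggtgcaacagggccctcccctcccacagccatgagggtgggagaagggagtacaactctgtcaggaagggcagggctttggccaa
The motifs were searched on both strands. They were the letters AGATAA, bound by factors of the Gata family, the letters TGTTTAC, bound by forkhead factors, the letters GCCNNNGGC for Tfap2 factors, the letters AACCNGTT for Tfcp2l1 and Grhl factors and the letters TCAAGGTCA for Esrr factors. Klk1 held none of them. S100g held the forkhead letters 47 bases before its start and Slc8a1 the Gata letters 68 bases before its start. The table paired 11418 of the 14783 genes tested between spot classes with a sequence. The Gata letters were in 7.25% of the promoters of genes higher in connecting tubule rich spots and in 7.43% of all those tested. The Tfap2 letters were in 24.9% and 23.3%, and the forkhead letters in 3.23% and 2.995%. These 3 shares lay near the background. Among the 180 genes over 4-fold higher with a sequence, the forkhead letters were in 6.67% (12 genes), the Tfap2 letters in 16.7% and the Gata letters in 8.89%. Of the 32851 promoters in the table, 9.99% held the Gata letters, 13.7% the Tfap2 letters and 3.17% the forkhead letters.

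The comparison with the other spots of the same section asked what else these spots hold. Genes of several distal cell types stood high: ENaC, kallikrein, the intercalated cell proton pump and thiazide-sensitive transport genes. Proximal tubule genes stood low, and thick ascending limb genes were mixed. Of 14783 genes tested by edgeR's quasi-likelihood test with section as a block, 2092 (14.2%) were higher and 2652 (17.9%) lower in connecting tubule rich spots at an adjusted p under 0.05, together 32.1%. Each p rests on the paired sums of 4 sections, with the genotypes pooled.

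Of 17 tested calcium and vitamin D genes other than the markers, 10 were higher and 2 lower, with a median log2 difference of 1.03 against -0.03 over all genes tested. Atp2b4, a plasma membrane calcium pump, stood at 50.4, 54.7, 109 and 121 CPM in Control 1, Control 2, Uox_KO 1 and Uox_KO 2, against 8.56, 12.2, 10.6 and 15.8 CPM in other spots (log2 difference 2.77, adjusted p 1.0e-05). Kl, which encodes Klotho, stood at 1561, 1603, 1188 and 2154 CPM against 514, 531, 122 and 190.2 CPM (log2 difference 2.505, adjusted p 0.000435). Both genes were higher inside in all 4 sections, by least in Control for Kl. Vdr, the vitamin D receptor, was higher by 1.22 (adjusted p 0.00376) and Trpv6, the second epithelial calcium channel, by 2.09 (adjusted p 0.000149). Trpv6 stayed at 2.80 to 6.90 CPM. Cyp24a1, the enzyme that breaks down active vitamin D and a proximal tubule gene as well, was lower by a log2 difference of -1.11 (adjusted p 0.00103).

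Sodium and potassium transport genes were mostly raised: 15 of 21 were higher and 2 lower, and their median log2 difference was 1.93. Klk1 had the largest difference among genes of at least 20 CPM, at 27039, 34809, 10400 and 20456 CPM against 2686, 4086, 492 and 1239 CPM in other spots (log2 difference 3.73, adjusted p 9.9e-06). Its close paralog Klk1b5 followed at 3.47, and reads could be split between such near-identical genes. The 3 ENaC subunit genes were higher by 2.42 (Scnn1a), 3.02 (Scnn1b) and 3.33 (Scnn1g). Hsd11b2, which protects the mineralocorticoid receptor from glucocorticoids, was higher by 2.53, Nr3c2, the receptor itself, by 1.93, and the potassium channel gene Kcnj1 by 2.34. Ptges, a prostaglandin E synthase, was higher by 3.04. The 2 lower genes were Prss8, a protease that activates ENaC, at -0.61 and Tsc22d3, a steroid target, at -0.50.

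Intercalated cell genes were raised throughout: 18 of 18 were higher, with a median log2 difference of 2.70. Atp6v1g3, a subunit of the proton pump, stood at 960.1, 1176, 319 and 672 CPM against 158, 214, 15.6 and 41.3 CPM (log2 difference 3.35). Slc26a4, the chloride and bicarbonate exchanger pendrin, was higher by 2.71 and Rhbg, an ammonia channel, by 3.45. Of 18 distal convoluted tubule genes 13 were higher (median 1.90) and of 13 principal cell genes 11 (median 1.42). Of 23 transcription factors of the distal nephron 16 were higher and 3 lower. Among them Foxi1, the intercalated cell factor, was higher by 2.86, Gata3 by 2.06, Mecom by 2.001 and Tfcp2l1 by 1.62, whereas the Irx factors Irx1, Irx2 and Irx3 were lower by -1.97, -2.39 and -1.62. Of 20 proximal tubule genes 18 were lower (median -1.20), although the abundant androgen-responsive gene Kap still stood at 30427 and 29902 CPM in the Control spots. Of 12 thick ascending limb genes 4 were higher and 6 lower, and Umod, uromodulin, was lower by -1.16.

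How much the spots coincided with those of neighbouring cell types was counted with the same rule applied to other markers. Spots in the top 5% for distal convoluted tubule markers (Slc12a3, Pvalb and Trpm6) made up 8.73% and 5.95% of connecting tubule rich spots in Control and 43.2% and 35.7% in Uox_KO. Without Pvalb in that score the Control shares were 19.0% and 15.5%, and the Uox_KO shares did not change. Spots in the principal cell set (Aqp2, Aqp3, Hsd11b2 and Scnn1g) made up 24.6% and 20.8% in Control and 40.9% and 48.8% in Uox_KO. The share in the intercalated cell set (Atp6v1g3, Atp6v0d2, Slc4a1 and Slc26a4) was 43.7%, 43.5%, 50.8% and 55.8%. Both Uox_KO sections lay above both Control sections for each of the 3 sets. In none of the 3 sets were 56, 81, 17 and 9 of the spots.

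The overlap with an injured tubule set ran the other way. By a score of Havcr1, Lcn2, Krt20, Vcam1 and Spp1, 63.5% and 63.1% of the connecting tubule rich spots were in the set in Control, against 1.52% and 0% (0 of 129 spots) in Uox_KO. Without Spp1 in the score the Control shares were 15.1% and 10.1% and the Uox_KO shares the same as with it. The Control spots held 1 and 2 UMIs of Havcr1, the gene of kidney injury molecule KIM-1, and none of Lcn2.

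**Figure D3:**
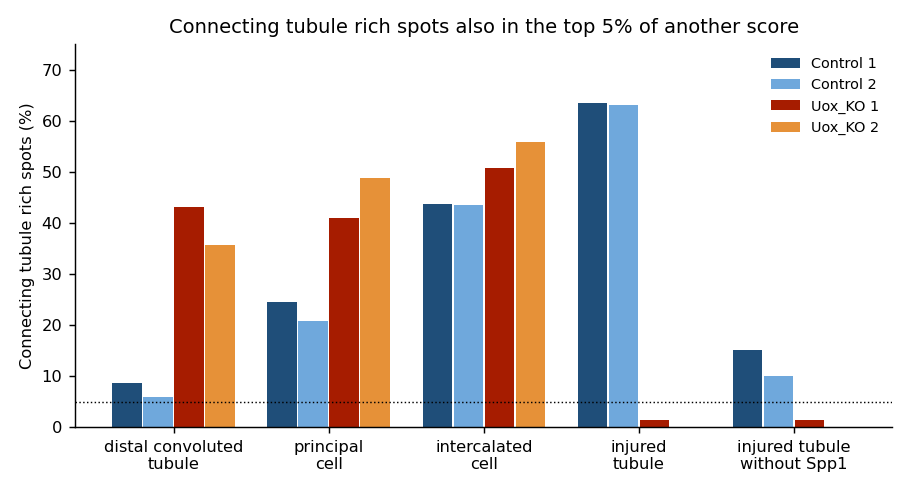
Share of the connecting tubule rich spots of each section (bars, percent) that were also in the top 5% of their section for another marker score; the dotted line marks 5%. For the distal convoluted tubule and principal cell scores both Uox_KO bars stand above both Control bars, and for the injured tubule score both stand below.

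Correlations within the connecting tubule rich spots are given as a description, without a contrast of genotypes. The spots were kept for a high sum of Calb1, S100g, Slc8a1 and Trpv5 with a different threshold in each section, and this selection itself shapes the correlations of those genes. Across the spots of a section, the Spearman correlation of Calb1 with S100g was 0.20 (126 spots) and -0.04 (168 spots) in Control and 0.74 (132 spots) and 0.56 (129 spots) in Uox_KO. Calb1 with Klk1 gave 0.01, -0.08, 0.62 and 0.25. Slc12a3, the thiazide-sensitive sodium chloride cotransporter, and Aqp2, the water channel of principal cells, correlated at -0.38, -0.36, -0.47 and -0.67, so spots high for one tended to be low for the other in every section. Slc12a3 with Calb1 gave 0.57, 0.57, 0.38 and 0.20. These values describe spots that share a library and differ in depth. Calb1 itself correlated with the UMIs per spot at 0.09 and 0.07 in Control and 0.38 and 0.30 in Uox_KO, and the part of depth in the marker correlations was not tested.

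The comparison of Uox_KO with Control within connecting tubule rich spots asked which transcripts of these spots differed between genotypes. Transcripts of Aqp2, of the ENaC subunit gene Scnn1a and of the calcium pump gene Atp2b4 were higher in Uox_KO. Those of Klk1, Slc26a4 and Slc4a9 were lower, and most injury, matrix and immune genes tested were higher. With spots of the distal convoluted and principal cell sets left out, Aqp2, Scnn1a and Klk1 were not called, as given below. The part of the spot mix in these differences was not tested. Of 11729 genes tested, edgeR called 1617 (13.8%) higher and 1576 (13.4%) lower, 27.2% in all, after Benjamini-Hochberg adjustment. By over 2-fold, 899 (7.66%) were higher and 553 (4.71%) lower. Both Uox_KO sections lay above both Control sections for 31.3% of genes and below them for 32.4%, called or not. Without Control 1 the counts were 1026 and 917, and without Control 2 they were 942 and 893.

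In the calcium and vitamin D list 5 of 16 tested genes rose and 2 fell in Uox_KO, and the median log2 fold change was 0.30 against -0.01 over all genes tested. Atp2b4 was at 109 and 121 CPM in Uox_KO against 50.4 and 54.7 CPM in Control, with no overlap (log2 fold change 1.16 with a standard error of 0.14, adjusted p 4.9e-06 by edgeR). Stc1, encoding the calcium-regulated hormone stanniocalcin, was higher by 1.51 (adjusted p 0.0039) from 3.57 and 2.78 CPM to 8.29 and 9.29 CPM, and its relative Stc2 by 2.16 (adjusted p 0.00363). The rises of Calm2, a calmodulin gene (log2 fold change 0.48, adjusted p 0.026), and of the pump gene Atp2b1 (0.56, adjusted p 0.0315) were smaller and were not called in 8 and 9 of the 21 alternatives. Cyp24a1 was lower, at 23.0 and 7.86 CPM against 74.9 and 56.9 CPM (log2 fold change -2.13, adjusted p 5.3e-06), and Itpr1, a calcium release channel, by -0.58 (adjusted p 0.00424).

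For the regulators of calcium transport no difference was called. Vdr was at 301 and 386 CPM in Uox_KO against 283 and 305 CPM in Control (log2 fold change 0.26, standard error 0.15, adjusted p 0.245 by edgeR). Kl was at 1188 and 2154 CPM against 1561 and 1603 CPM, so the Uox_KO sections lay on either side of Control (log2 fold change 0.11, standard error 0.21, adjusted p 0.739 by edgeR). Pth1r, the parathyroid hormone receptor, had an adjusted p of 0.0521 at a log2 fold change of 0.45, and Casr, the calcium-sensing receptor, one of 0.388 at 0.34.

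The sodium and potassium list was split, with 5 of 21 genes higher, 4 lower and a median of 0.12. Scnn1a was at 253 and 322 CPM in Uox_KO against 152 and 167 CPM in Control (log2 fold change 0.88, standard error 0.15, adjusted p 0.000219 by edgeR, n = 2 per group). Scnn1g was at 128 and 270.4 CPM against 119 and 139 CPM, so Uox_KO 1 lay inside the Control range (log2 fold change 0.67, adjusted p 0.0307), and without Uox_KO 2 its log2 fold change was 0.02 and not called. Scnn1b was higher by 0.46 (adjusted p 0.037), and 0.26 without Uox_KO 2, again not called. Ptges was at 169 and 231 CPM against 82.0 and 85.7 CPM (log2 fold change 1.29, adjusted p 4.7e-06), and Kcnj10, a basolateral potassium channel, was higher by 0.96 (adjusted p 4.3e-05). Hsd11b2 (log2 fold change -0.03, adjusted p 0.939) and Kcnj1 (0.10, adjusted p 0.666) were not called.

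Klk1 was lower in Uox_KO. Its levels were 10400 and 20456 CPM in Uox_KO against 27039 and 34809 CPM in Control, with no overlap (log2 fold change -0.97, standard error 0.25, adjusted p 0.00676 by edgeR, n = 2 per group). The call was lost without Control 2, at -0.80. It was also lost without the spots of the injured tubule set, at -0.70, which takes out 80 and 106 Control but 2 and 0 Uox_KO spots, and Klk1 correlated with Spp1 of that score at 0.56 and 0.53 across Control spots. With Spp1 left out of that score, an alternative added after seeing the data, the log2 fold change was -0.99 and called. Klk1b5 was lower by -1.07. Prss8 fell by 0.68 on the log2 scale, Fxyd2, a sodium pump regulator, by 0.94 and the clock gene Per1 by 0.99.

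Of 18 intercalated cell genes 8 were lower and 1 higher in Uox_KO, with a median of -0.40. Slc26a4 was at 97.6 and 161 CPM against 288 and 309 CPM (log2 fold change -1.16, adjusted p 7.2e-05). Slc4a9, a bicarbonate transporter of the same beta-type cells, was at 35.0 and 55.4 CPM against 114 and 138 CPM (log2 fold change -1.43, adjusted p 6.1e-06), and Insrr, a receptor that senses alkali, at 39.1 and 40.0 CPM against 78.5 and 102 CPM (log2 fold change -1.16, adjusted p 2.3e-05). The transcription factor genes Hmx2 and Foxi1 were lower by -1.02 and -0.79, and Atp6v1g3 by -1.07. The higher gene was Aqp6, a water channel of acid-secreting alpha-type cells, at 65.8 and 124 CPM against 49.2 and 47.1 CPM (log2 fold change 1.03, adjusted p 0.000748). Slc4a1, the basolateral exchanger AE1 of those cells, was not called (log2 fold change 0.06, adjusted p 0.867). Whether the 2 intercalated cell types differed was not tested.

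Of 11 principal cell genes 6 were higher and none lower, with a median of 0.46. Aqp2 was at 440.1 and 663 CPM in Uox_KO against 183 and 182 CPM in Control (log2 fold change 1.63, adjusted p 8.7e-07), and Avpr2, the vasopressin receptor, at 85.2 and 131 CPM against 50.4 and 60.3 CPM (log2 fold change 1.005, adjusted p 0.00025). Npnt, an integrin ligand, was higher by 1.003. The others were Scnn1b, Scnn1g and Stc1, given above. Outside the list, the potassium channel subunit gene Kcne1 was higher by 1.85, from 27.8 and 25.5 CPM to 58.9 and 125 CPM. More connecting tubule rich spots were also in the principal cell set in Uox_KO, as given above. With spots of the distal convoluted and principal cell sets left out, which removes spots chosen by Aqp2 itself, 85 and 124 Control and 30 and 24 Uox_KO spots remained, and the log2 fold change of Aqp2 was 0.22 and not called. In those spots Atp2b4, Ptges, Avpr2 and Slc26a4 were still called, and Scnn1a (0.65), Kcnj10 (0.65) and Klk1 (-0.84) were not.

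Of 17 distal convoluted tubule genes 4 were higher and 3 lower. Slc12a3 did not pass the test (log2 fold change 0.13, adjusted p 0.585). Pvalb, the calcium buffer of the early distal convoluted tubule, was at 3.22 and 1.43 CPM in Uox_KO, which were 7 and 4 UMIs, against 69.0 and 66.6 CPM, which were 271 and 335 UMIs (log2 fold change -4.88, adjusted p 1.2e-10). Egf was lower at 104 and 106 CPM against 395 and 377 CPM (log2 fold change -1.85). The magnesium transport gene Cnnm2 and the kinase gene Stk39 were higher by 0.72 and 0.59, and Kcnj10 and Fxyd2, given above, are on this list too. Of 20 distal transcription factors 5 were higher and 2 lower: Elf3, an epithelial stress factor, was higher by 1.28, Gata3 by 0.85, Ehf by 0.76, Mecom by 0.64 and Tfcp2l1 by 0.54, and Foxi1 and Irx3 were lower.

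**Figure D4:**
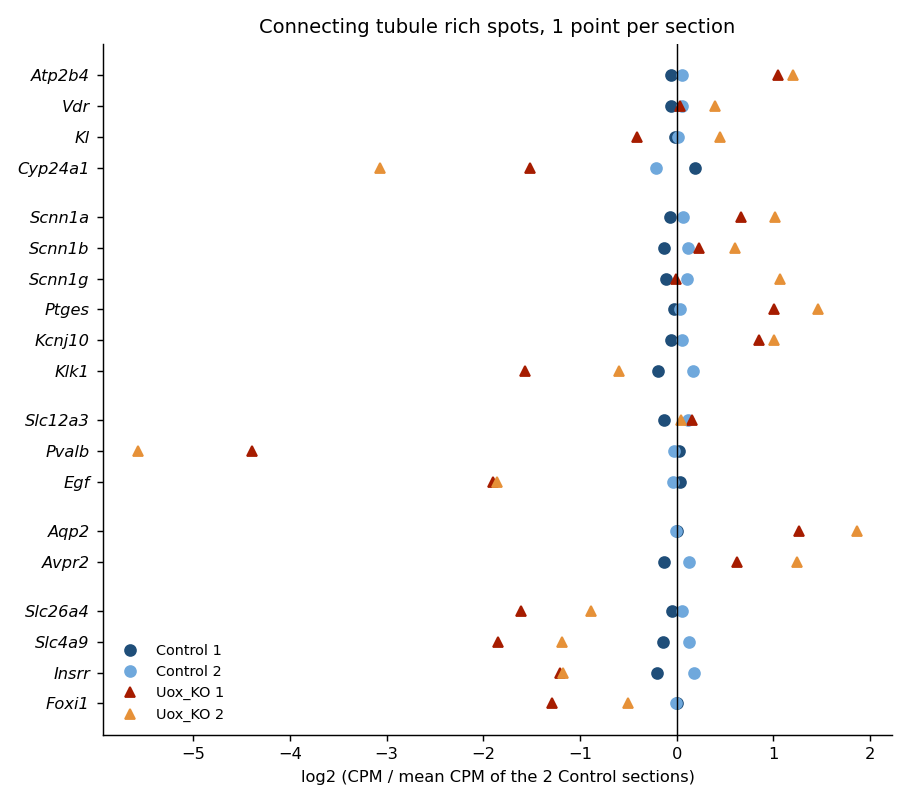
Level of named genes in connecting tubule rich spots as log2 of CPM over the mean CPM of the 2 Control sections, 1 point per section (circles Control, triangles Uox_KO). Atp2b4, Ptges, Aqp2 and Avpr2 lie to the right of Control and Pvalb, Egf, Cyp24a1 and Slc26a4 to the left in both Uox_KO sections, whereas Kl lies on either side.

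Injury, matrix, immune and interferon genes were higher in Uox_KO. Of 28 injury genes 27 were higher (median 2.45), as were 15 of 15 matrix genes (median 2.44), 11 of 14 immune genes (median 2.28) and 14 of 18 interferon response genes (median 1.11). None of these was lower. Spp1, osteopontin, was at 6084 and 7347 CPM against 1765 and 1914 CPM (log2 fold change 1.90). Krt18, a keratin of stressed tubules, was at 185 and 141 CPM against 24.7 and 26.3 CPM (log2 fold change 2.69). Lcn2, the gene of lipocalin-2, had 191 and 114 UMIs in Uox_KO and 0 in Control, which is at least 201-fold higher against a floor of 3 UMIs over the Control group. Col1a1, a collagen chain, was at 194 and 139 CPM against 12.5 and 8.95 CPM, and the complement gene C1qb at 195 and 130.4 CPM against 18.9 and 14.5 CPM. A pair of enzymes raised in connecting tubule rich spots were higher in Uox_KO as well: Ltc4s, leukotriene C4 synthase, by 1.22 and Pgam2, a glycolytic mutase, by 0.55. Of 16 immediate early genes 9 were higher and none lower, among them Ier3 by 1.24 and Jund by 1.17.

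Proximal tubule genes and part of the respiration genes were lower, and the lists of other compartments were mixed. Of 20 proximal tubule genes 18 were lower (median -1.78), among them Slc5a2, the glucose carrier of the early proximal tubule, at 59.8 and 41.8 CPM against 391 and 345 CPM. Summed over the list, proximal tubule genes took 46941 and 44641 CPM in Control and 18512 and 12989 CPM in Uox_KO, and the immune list took 286, 238, 1398 and 1076 CPM. The part of such neighbouring cells in the differences was not tested. Of 24 nuclear genes of the respiratory chain 13 were lower and none higher (median -0.47), among them Cycs by -0.94 and Sdhb by -0.83. Of 16 genes of endothelium, smooth muscle and renin cells 2 were higher and 3 lower (median -0.06). The one with the largest fall, Ren1, renin, was at 15.7 and 16.8 CPM against 207 and 131 CPM (log2 fold change -3.34). In the list of fat, urothelium and red blood cell genes all 11 tested were called, 7 higher and 4 lower, with a median of 5.80 (5.45 with genes at 0 in Control at their bound). The 4 lower genes were haemoglobins, whose copies share sequence, with Hbb-bs at 74.1 and 153 CPM against 5625 and 4497 CPM. Cfd, the fat cell gene of adipsin, was at 128 and 256 CPM against 1.02 and 0.597 CPM. Adipoq, the fat cell hormone adiponectin, and Sprr1a, a gene of stressed epithelium, had no UMI in Control and were at least 46.9-fold and 43.6-fold higher against the floor of 3 UMIs. The part of fat, urothelial or blood cells in these spots was not tested. Podocyte genes summed to 192 and 156 CPM in Control and 228 and 133 CPM in Uox_KO, and Nphs1, the slit diaphragm gene nephrin, was at 0.357 to 5.52 CPM and not called.

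Whether the genotype difference in connecting tubule rich spots differed from that in the other spots of the same sections was tested by the genotype by spot class term. The Uox_KO difference was more positive in connecting tubule rich spots for most distal convoluted tubule, intercalated cell, principal cell and sodium and potassium genes. For most matrix genes it was more negative. Of 15780 genes tested, the difference was more positive in connecting tubule rich spots for 481 (3.05%) and more negative for 804 (5.10%). The counts together were 1285 (8.14%), and 451 without Control 1 and 440 without Control 2.

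Kl was at 122 and 190.2 CPM in the other spots of Uox_KO against 514 and 531 CPM in Control, while inside it was not called (interaction 1.80, adjusted p 2.9e-22). Vdr was at 88.4 and 97.8 CPM in those spots against 198 and 201 CPM (interaction 1.32, adjusted p 8.2e-15). Of 18 calcium and vitamin D genes 7 had a more positive difference inside and none a more negative one. Slc12a3 was at 81.6 and 178 CPM against 472 and 606 CPM in other spots (interaction 2.25, adjusted p 1.0e-22), and 16 of 18 distal convoluted tubule genes had a more positive difference (median 1.14 against -0.05 over all genes tested). The same held for 15 of 18 intercalated cell genes (median 1.38), 14 of 22 sodium and potassium genes (median 0.81) and 10 of 13 principal cell genes (median 1.303). Of 23 distal transcription factors 10 had a more positive difference and 1 a more negative one. For Klk1 the interaction was 1.01, and its level in other spots was 492 and 1239 CPM in Uox_KO against 2686 and 4086 CPM in Control. Sgk1, an aldosterone-induced kinase, was the sodium and potassium gene with a more negative difference (-0.72), at 90.5 and 89.3 CPM against 54.4 and 54.2 CPM in other spots.

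Spp1 and most matrix genes gave the reverse pattern, as did a smaller part of the injury and immune genes. Spp1 was at 8020 and 7452 CPM in the other spots of Uox_KO against 445 and 503 CPM in Control, a larger difference than inside (interaction -2.17, adjusted p 2.25e-27). In Control it was higher inside than outside in both sections, and in Uox_KO it was lower inside in both. Havcr1 stood at 23.5 and 12.9 CPM inside and 86.7 and 102 CPM outside in Uox_KO, with an interaction that was not called (adjusted p 0.21). Of 15 matrix genes 11 had a more negative difference inside, and of 29 injury genes 10 (2 more positive). The same held for 7 of 18 immune genes and 7 of 20 proximal tubule genes. Not called were 4 matrix, 17 injury, 11 immune and 13 proximal tubule genes. The share of marker UMIs inside the connecting tubule rich spots was larger in Uox_KO, as given above, and its part in these interactions was not tested. With 1 score threshold for all sections 1626 genes were called. With spots of the distal convoluted and principal cell sets left out, 191 were called.

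**Figure D5:**
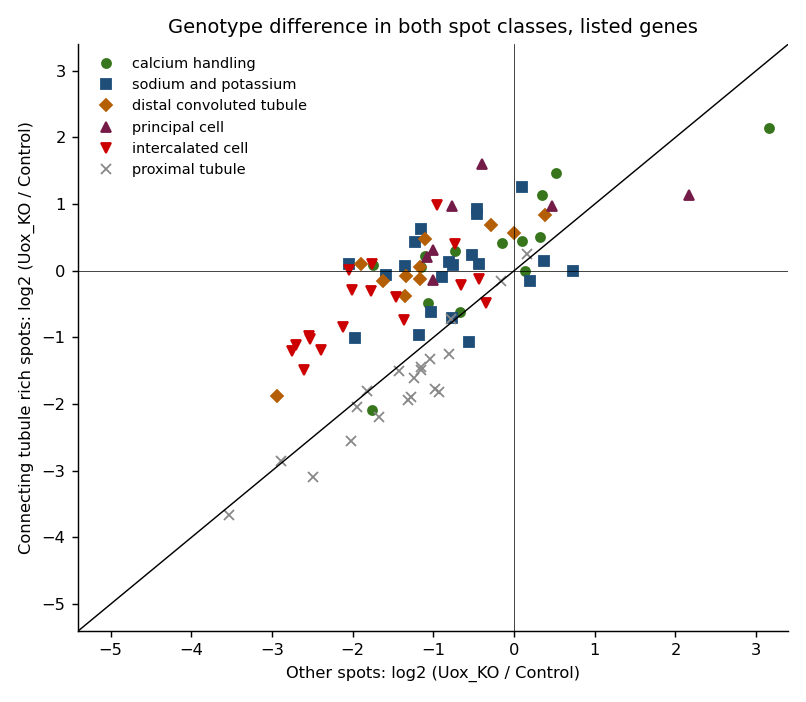
log2 of the Uox_KO over the Control mean CPM in connecting tubule rich spots (vertical) against other spots (horizontal) for listed genes with at least 1 CPM in each mean, 1 point per gene; the diagonal marks equal differences. All 11 genes plotted as distal convoluted tubule, 17 of 18 intercalated cell and 17 of 21 sodium and potassium genes lie above the line, and 4 of 20 proximal tubule genes do.

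The genotype difference was also compared with that in the spots of neighbouring segments. Against distal convoluted tubule rich spots, with shared spots and the genes of both scores left out, the genotype difference was more positive for 147 (1.25%) and more negative for 191 (1.62%) of 11784 genes. Together these were 338 (2.87%), and 155 without Control 1 and 92 without Control 2. Of 12 principal cell genes 9 had a more positive difference (median 1.36), as had 7 of 18 intercalated cell genes (1 more negative) and 6 of 13 immune genes. Klk1 had an interaction of -2.06 (adjusted p 3.15e-15), called in every setting tried. Hsd11b2 had one of 1.75 (adjusted p 6.9e-12), also called in every setting. Here 115 and 158 Control and 75 and 83 Uox_KO connecting tubule rich spots remained. Spots of the principal cell set, chosen in part by Hsd11b2 itself, and of the intercalated cell set were not left out. Both sets made up a larger share of connecting tubule rich spots in Uox_KO, as given above. The part of this mix in these interactions was not tested. Fxyd2 (-1.12) and Bsnd (-0.98), a chloride channel subunit, were more negative, and Fxyd2 was not called without either Control section. Against principal cell rich spots, 17 (0.145%) were more positive and 20 (0.171%) more negative of 11727 genes. Together these were 37 (0.316%), and 19 without Control 1, 17 without Control 2, 536 without Uox_KO 1 and 415 without Uox_KO 2. Slc12a3 was more positive by 3.84 (adjusted p 0.000425) and Emx1, a distal transcription factor, by 1.53 (adjusted p 0.00789), both called in every setting tried. Slc26a4 was more negative by -1.93 (adjusted p 0.000425). In this comparison 95 and 133 Control and 78 and 66 Uox_KO connecting tubule rich spots remained. Spots of the distal convoluted set, chosen in part by Slc12a3 itself, were not left out. They made up a larger share of connecting tubule rich spots in Uox_KO, as given above. The part of this mix in the Slc12a3 interaction was not tested.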

How the data were processed

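The authors deposited raw UMI counts per gene and spot, which are whole numbers; the submitters' processing notes name Space Ranger 1.3.1 and mm10. The filtered spots were used as deposited, with genes named by the 32285 IDs and symbols of the files. Spot counts were summed per section and class. After filterByExpr and TMM scaling, the quasi-likelihood F test of edgeR 4.0.16 in R 4.3.3 was applied, with Benjamini-Hochberg adjustment over all genes tested and a threshold of 0.05. The marker genes were kept in the library sizes and left out of the tests. Levels are CPM over the 8 sums, and log2 fold changes within connecting tubule rich spots come from the fit of their 4 sums.

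Named genes were the calcium, sodium and potassium, distal convoluted and distal transcription factor lists, the largest differences in each comparison with a mean of at least 20 CPM (10 in each direction for genotype, 15 and 5 for spot class, 6 for the interaction), and up to 4 members of each further list by smallest p. Members and lists were chosen with earlier results of these data known. The pipeline was tested on simulated counts. A count of 0 was bounded at 3 UMIs, counting error only. Alternatives included DESeq2 1.42.0. The labels give no batch or litter. Some listed genes are not reported here.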

Additional observations from a re-analysis of the deposited data

Results flagged for a closer look

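These genes had the largest tested interaction between genotype and spot class in each direction, so their Uox_KO to Control difference in connecting tubule rich spots differed from that in other spots. More positive in connecting tubule rich spots were Pvalb (log2 4.04), Cwh43 (2.85), Kcne1 (2.35), Slc12a3 (2.25), Defb1 (2.14) and Slc4a1 (2.05). The Pvalb value rests on 7 and 4 UMIs inside and 1 and 18 UMIs outside in Uox_KO, and without Uox_KO 1 it was 2.59 and not called. More negative were Thrsp (-2.96), Pygl (-2.65), Pdk4 (-2.63), Acta2 (-2.41), Gc (-2.30) and Fabp4 (-2.27). Thrsp and Fabp4 are genes of fat cells and Acta2 of smooth muscle. Fabp4 was at 755 and 1322 CPM in the other spots of Uox_KO against 58.8 and 82.6 CPM in Control.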

How the results depend on the processing

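Counts below are in the order genes higher in Uox_KO (1617), lower (1576), higher in connecting tubule rich than other spots (2092), lower (2652), and the interactions against other (1285), distal convoluted tubule rich (338) and principal cell rich spots (37), and only those that moved by over 1.5 times are given. DESeq2's Wald test gave 880, 786, 445, 56 and 11 for the genotype counts and the 3 interactions. The top 2.5% of spots gave 894 and 937 for genotype and 154 and 98 for the last 2 interactions. Members outside the distal convoluted and principal cell sets gave 721, 581 and, against other spots, 191. This alternative was added after seeing the data. So were the single threshold, the distal convoluted score without Pvalb and the injured tubule score without Spp1. Sums thinned to the smallest of their class gave 827, 89 and 14 for the interactions. Against distal convoluted tubule rich spots z scores gave 96 and leaving out injured tubule spots 205. Against principal cell rich spots the count was 104 with thinned spots, 15 without Trpv5 in the score, 133 with a single threshold and 165 without a filter. Leaving out 1 section gave 942 to 1683 genes higher and 893 to 1740 lower in Uox_KO, 1538 to 1840 higher and 2113 to 2237 lower than other spots, and 440 to 1813, 92 to 407 and 17 to 536 for the interactions. The counts between spot classes moved by less than 1.5 times in every setting tried. Of 85 genes called between genotypes and named by the rule, 54 kept the call in all 21 alternatives, and of 71 between spot classes 64 in all 20. The interactions kept fewer. Against other spots 25 of 52 such genes kept the call in all 20 alternatives. Against distal convoluted tubule rich spots 2 of 16 kept it in all 20, and against principal cell rich spots 2 of 8 in all 19.

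Signs turned for these genes. Outside the distal convoluted and principal cell sets, Slc12a3 was -1.53 and Klhl3 -1.20 between genotypes and Fxyd4 -0.47 between spot classes. There the interaction against other spots was -5.12 for Pvalb, -0.33 for Casr, -0.47 for Fxyd4 and -0.58 for Egf. Of these genes only Slc12a3 and Pvalb are in the scores by which spots were removed. Against distal convoluted tubule rich spots, the top 2.5% of spots gave -0.016 for Kl, -0.50 for Scnn1b, -0.20 for Scnn1g and -0.58 for Ptges, and z scores gave 0.11 for Scnn1a. Between genotypes Hsd11b2 ranged from -0.57 without Uox_KO 2 to 0.35 without Uox_KO 1, and Kl from -0.38 without Uox_KO 2 to 0.47 without Uox_KO 1. The cause of these changes was not tested.

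The sections share only replicate numbers (correlation of deviations 0.17 over 6060 genes, 1 value for 2 pairs). With the replicate block 1809 genes were higher and 1821 lower in Uox_KO, and all 3193 calls stayed. Depth limits Uox_KO, whose 2 sums were the smallest, and genes under a few CPM there.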

Other observations

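Malat1, a nuclear long non-coding RNA, was chosen after its values were seen. It stood at 423 and 270.4 CPM in the connecting tubule rich spots of Uox_KO against 166 and 127 CPM in Control (log2 fold change 1.27, adjusted p 3.8e-05 by edgeR), and its interaction with spot class was not called (adjusted p 0.912).

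Wfdc2, a secreted protease inhibitor, was both raised in connecting tubule rich spots (log2 difference 1.56) and higher in Uox_KO there, at 1798 and 1914 CPM against 589 and 661 CPM (log2 fold change 1.60). It was higher in Uox_KO in the other spots as well, with a mean of 690 CPM against 198 CPM in Control. Defb1, a beta-defensin, stood at 2263 and 2605 CPM in Control and 1627 and 2285 CPM in Uox_KO inside and was not called (log2 fold change -0.29, adjusted p 0.266), while in other spots it was at 561 and 686 CPM against 78.4 and 159 CPM.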
